A study of Tupaia belangeri with 2 samples.

Results

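Histone genes supply the proteins around which newly copied DNA is wound, and 6 of them are described here in the embryonic brain of the tree shrew (Tupaia belangeri): H15, H13, HIST1H3E, H2AJ, H2B1N and H2B1H. They were chosen by these names, after their UMI counts had been seen to be high in dividing cells of the same libraries, so their levels by cell cycle state and cell group are given as a description without a test. Each name belongs to 1 gene model, and the 6 are part of 53 histone-named models among 23975 models in the annotation. Whole brains of 2 embryos of 4 to 5 postconceptional weeks were each profiled in 1 droplet library of the 10x Chromium 3′ kit. There is no treatment and no second genotype, so the data hold a single group with n = 2 animals, called embryo 1 and embryo 2. The dura mater and vessels had been removed from the brains. Levels are numbers of unique molecular identifiers (UMIs, 1 for each transcript caught), given per 1000000 UMIs summed over the cells of a group (CPM), with exact 95% Poisson intervals that cover counting error only.

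The core histones H2A, H2B, H3 and H4 form the spool of the nucleosome, and the linker histone H1 binds where the DNA enters and leaves it. In animals most of their genes lie in dense clusters and are transcribed mainly while DNA is replicated, in S phase. Their mRNAs end in a stem-loop instead of a poly(A) tail and are degraded when replication ends, so a kit that primes on poly(A) captures them only in part. Replication-independent variants, in contrast, are polyadenylated and made throughout the cell cycle.

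All 6 models lie on chromosome 31 of the TS_2.0 assembly, within a stretch that runs from model 217 to model 261 and in which 22 of 39 models carry a histone name. H13 is model 217, H2AJ model 226, HIST1H3E model 231, H2B1H model 242, H2B1N model 256 and H15 model 258. The position of a model is known here only by its number along the chromosome. H15 and H13 are named after linker histones, HIST1H3E after a core histone H3, H2AJ after a form of H2A, and H2B1N and H2B1H after core histones H2B. In other mammals the name H2A.J stands for a replication-independent variant, whereas the tree shrew model of that name sits between replication-type histone models. Histone genes of 1 kind are nearly identical, so reads that match several copies may have been dropped or assigned to another copy, and the values of single models are uncertain in that respect.

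The 2 libraries held 8408 and 9327 cells with at least 200 genes, with medians of 3539 and 3169 UMIs per cell. The 6 genes had 24638 UMIs in embryo 1 and 26447 in embryo 2, 0.0645% and 0.0739% of all UMIs in these cells. Haemoglobin genes took 22.5% of the UMIs in embryo 1 and 8.38% in embryo 2. The libraries shared 18 of 18926 barcodes, and no doublets were removed. Clustering without any histone-named gene gave 17 clusters, of which clusters 4 and 9 earned the name dividing cell-like with 13 markers each, among them MKI67, TOP2A and CENPF. Cluster 12 earned the name radial glia-like, after the neural stem cells of the developing brain, with 7 markers. PAX6 and GLI3, which were markers of cluster 2, were not among them, and its leading genes included BCAN, VCAM1, SPON1 and CLU. Whether its cells are stem cells or early astrocyte-type cells was not tested. They are nearly all of the cells above neither cut in the comparisons below. Cluster 2 had 8 radial glia markers but was left unnamed by the marker rule. MCM5, a marker of dividing cells, was among its 10 leading genes, and no radial glia marker was. The replication genes MCM3 and MCM4 also led it but are not on the marker list.

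UMIs of the 6 genes were concentrated in the dividing cell-like clusters. These held 14.7% of the cells and 19.6% of all UMIs of embryo 1, but 84.6% of its UMIs of the 6 genes. In embryo 2 they held 11.7% of the cells, 18.8% of all UMIs and 85.2% of the UMIs of the 6 genes. By gene the share ran from 78.0% (H13, embryo 2) to 88.0% (H15, embryo 2).

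H15 reached 712 CPM in the dividing cell-like clusters of embryo 1 and 727 CPM in those of embryo 2, against 13.4 and 10.5 CPM in the neuron-like clusters. Its level in dividing cell-like cells was therefore 53.1 and 69.0 times that in neuron-like cells. HIST1H3E had 141 and 264 CPM in dividing cell-like cells, 50.3 and 54.4 times its level in neuron-like cells. For the other 4 genes this ratio ran from 19.7 (H13, embryo 2) to 30.1 (H2AJ, embryo 2). Each of the 6 genes was higher in dividing cell-like than in neuron-like cells in both embryos. The genes had been chosen with this difference known, so nothing is read from their number.

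**Figure D1:**
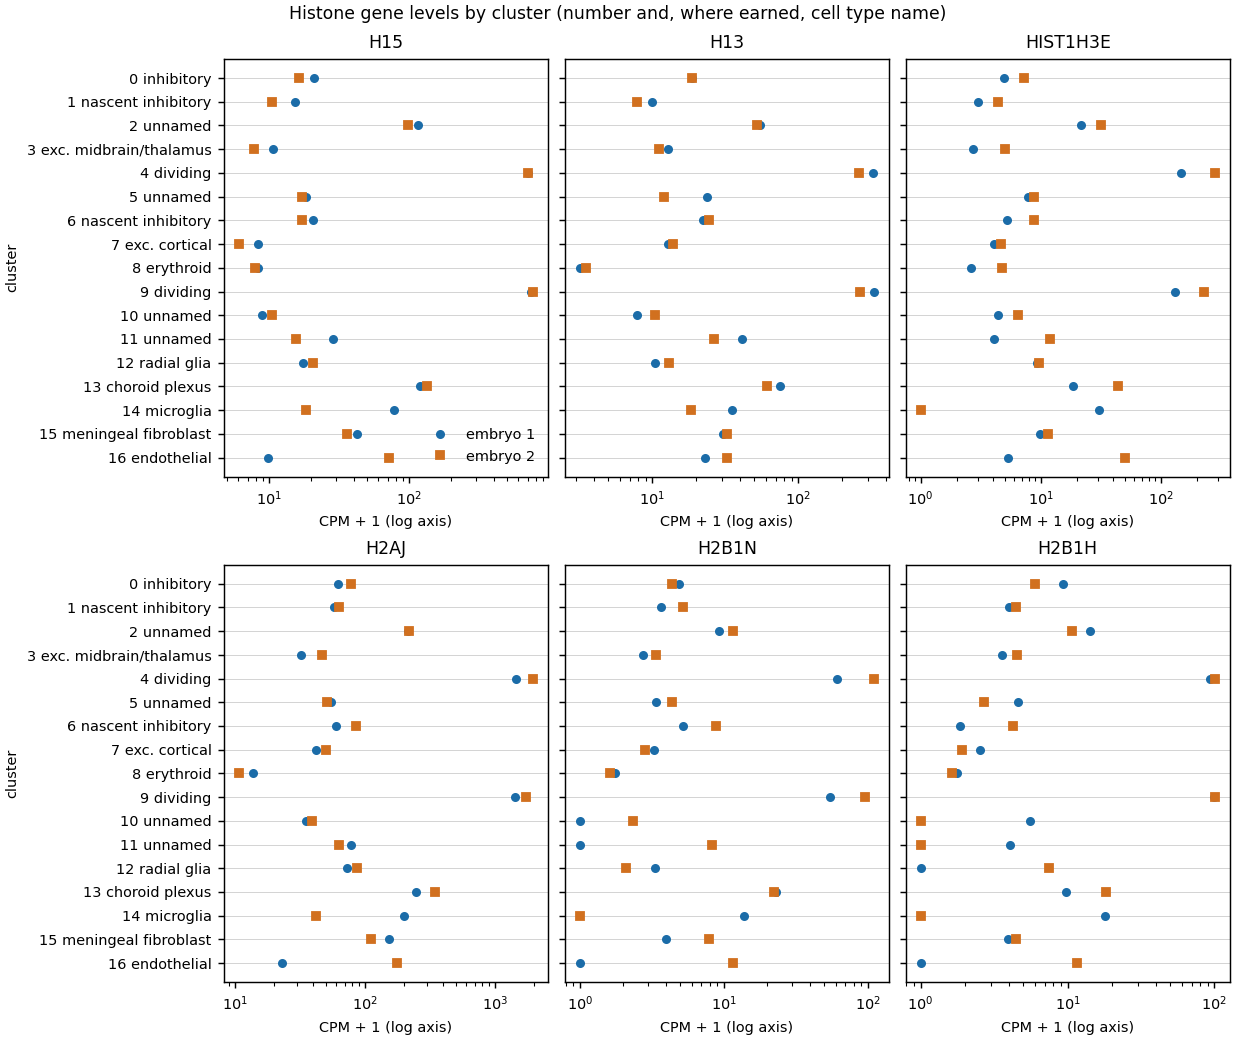
Level of each gene in the 17 clusters, as CPM + 1 on a log axis, with 1 circle (embryo 1) and 1 square (embryo 2) per cluster. Clusters 4 and 9 stand to the right of all others in each panel, at 700 to 766 CPM for H15, and the choroid plexus-like cluster and cluster 2 follow in the panels of H15, H13, H2AJ, H2B1N and H2B1H.

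Outside the dividing cell-like clusters, the choroid plexus-like cluster had the next highest mean level of each of the 6 genes, for H15 126 CPM ± 10.6 (SD, n = 2 embryos). The choroid plexus is the epithelium that secretes cerebrospinal fluid. Its cluster held 161 cells. Of those with at least 1000 UMIs, 20.7% in embryo 1 and 19.6% in embryo 2 were above a cut on S or G2M genes, and H15 rested on 27 and 31 UMIs in the cluster. Cluster 2 followed for 5 of the 6 genes, with 115 and 96.3 CPM of H15. The microglia-like and endothelial-like clusters differed between the embryos: microglia-like cells had 76.6 CPM of H15 in embryo 1 (18 UMIs) and 17.3 CPM in embryo 2 (5 UMIs), and endothelial-like cells had 8.77 CPM (2 UMIs) and 70.3 CPM (20 UMIs). These levels rest on too few UMIs to order both clusters.

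Radial glia-like cells that were not in a dividing cluster had H15 within the range of the neuron-like clusters (5.07 to 20.0 CPM). H15 was at 16.5 and 19.5 CPM in cluster 12, and H13 at 9.41 and 11.9 CPM. In the 17 clusters the lowest mean level of H13, H2AJ, HIST1H3E and H2B1H was in erythroid-like cells, red blood cell precursors, where H13 had 2.18 and 2.51 CPM. Haemoglobin genes made up 88.3% and 87.8% of the UMIs there, and with these left out of the totals the sum of the 6 genes was 217 and 198 CPM, against 25.3 and 24.2 CPM with them. The order then turned for H15, H2AJ and HIST1H3E. Without haemoglobin genes H15 had a mean of 59.5 CPM in erythroid-like cells and 6.20 to 18.0 CPM in the neuron-like clusters. H2AJ had 94.0 CPM against 38.8 to 72.6 CPM, and HIST1H3E had 22.4 CPM against 2.72 to 6.05 CPM. H13, H2B1N and H2B1H came to lie within the range of the neuron-like clusters, H13 with 19.6 CPM against 7.92 to 22.4 CPM.

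Every cell with at least 1000 UMIs was placed in 1 of 4 cell cycle states by the share of its UMIs that fell on 38 models of S phase genes (such as PCNA and the MCM helicase subunits) and on 91 models of G2 and M phase genes (such as TOP2A and CDK1), neither list holding a histone gene. A cell counted as above a list when it exceeded the 99th percentile of the neuron-like cells, which was 21.7 UMIs per 10000 for the S list and 109.99 for the G2M list. Only 0.0338% of the 8884 neuron-like cells were above both cuts. Of the 2627 cells of clusters 4, 9 and 12, 16.8% lay within 20% of the S cut and 4.76% within 20% of the G2M cut, so the states are ranges of a score and not types. In these clusters the state above neither cut held 151 and 163 cells of embryos 1 and 2, the S state 24 and 28, the S and G2M state 504 and 519, and the G2M state 704 and 534. Median UMIs per cell ran from 4163 to 5598 over these groups, and markers of neurons summed to 484 to 822 CPM, highest in the S and G2M state of embryo 2. Haemoglobin genes took 0.073% to 1.85% of the UMIs of these groups. The states were not spread evenly over the clusters. Of the cells above neither cut 148 and 161 were in the radial glia-like cluster 12. The S state had 9 and 8 cells in cluster 12 and 15 and 20 in clusters 4 and 9. Clusters 4 and 9 held 502 and 519 cells of the S and G2M state and 704 and 532 of the G2M state. At most 2 cells per embryo of either of these latter states lay outside them. State and cluster can thus not be told apart in a comparison with cells above neither cut here, and values within a single cluster are given below for cluster 2.

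The linker histone H15 was highest in the S and G2M state, where it had 1031 CPM (95% interval 994 to 1069) in embryo 1 and 1011 CPM (976 to 1048) in embryo 2. In the G2M state it had 525 and 505 CPM, and in the state above neither cut 12.6 and 27.1 CPM. The S and G2M state thus held 1.96 and 2.00 times the level of the G2M state, and 81.8 and 37.3 times that of cells above neither cut.

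The linker histone H13 followed the same order. It had 471 and 359 CPM in the S and G2M state, 236 and 183 CPM in the G2M state, and 8.81 and 18.9 CPM above neither cut. The ratio of the S and G2M state to the G2M state was 1.99 in embryo 1 and 1.95 in embryo 2. In both dividing states H13 was lower in embryo 2, at 0.761 and 0.776 times the level of embryo 1, with intervals that did not overlap.

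HIST1H3E, named after a core histone H3, had 213 and 366 CPM in the S and G2M state and 98.4 and 185 CPM in the G2M state. Above neither cut it had 10.1 and 8.25 CPM, on 8 and 7 UMIs. Embryo 2 stood 1.72 times above embryo 1 in the S and G2M state and 1.88 times in the G2M state, beyond the counting error of either. With 1 library per embryo, a difference between the animals and a difference between the libraries cannot be told apart.

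H2AJ had 2146 and 2768 CPM in the S and G2M state, 1040 and 1230 CPM in the G2M state, and 81.8 and 93.1 CPM above neither cut. Embryo 2 was 1.29 times higher in the S and G2M state. Although the gene is named after a replication-independent form of H2A, the step from the G2M state to the S and G2M state was 2.06 and 2.25 times, beside 1.77 to 2.17 times for the other 5 genes over both embryos.

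The core histone H2B genes had the fewest UMIs. H2B1N had 80.2 and 150 CPM in the S and G2M state and 45.3 and 69.3 CPM in the G2M state, and embryo 2 was 1.88 and 1.53 times higher in these states. H2B1H had 133 and 137 CPM in the S and G2M state and 70.5 and 71.0 CPM in the G2M state, with overlapping intervals between the embryos in both. Of the 6 genes, H15 and H2B1H were thus alike in the 2 embryos in both dividing states, H13 was higher in embryo 1, and HIST1H3E, H2AJ and H2B1N were higher in embryo 2. Such differences were not particular to these genes. Among the other histone-named models described below, H3F3A was 1.29 times higher in embryo 2 in the S and G2M state. H2B2F was 1.25, H2AV 1.20, H2B1K 1.19 and HIST1H1D 1.06 times higher, all with intervals apart. Those of H2AFY (0.928 times) overlapped. The share of all gene models that differed in this way was not counted.

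**Figure D2:**
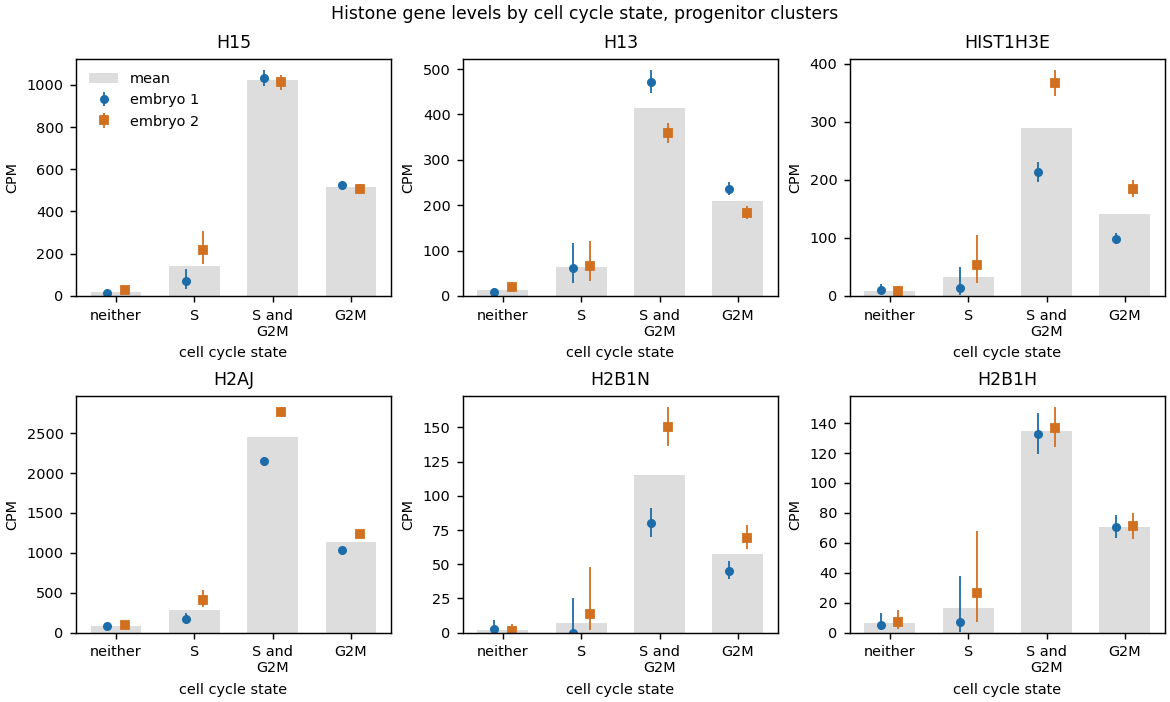
Level of each gene in CPM (vertical axis, from 0) in the 4 cell cycle states of clusters 4, 9 and 12. Grey bars are the means of the 2 embryos, circles and squares the embryos, and lines exact 95% Poisson intervals. In all 6 panels the S and G2M state is highest, at about 2 times the G2M state, and for H15 at 1031 and 1011 CPM.

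Cluster 2 was the cluster in which all 4 states could be compared, with 473 and 400 cells above neither cut, 267 and 199 in the S state, 77 and 66 in the S and G2M state and 120 and 80 in the G2M state. The sum of the 6 genes in it was 115 and 201 CPM above neither cut, 328 and 258 CPM in the S state, 1714 and 1730 CPM in the S and G2M state and 1055 and 699 CPM in the G2M state. Haemoglobin genes, which stay in these totals, took 16.0% and 2.91% of the UMIs of its G2M state. They took 0.263% and 0.0732% in its S and G2M state, so the G2M level of embryo 1 is lowered by them. Each of the 6 genes was highest in the S and G2M state in both embryos, at lower levels than in clusters 4, 9 and 12. H15 had 20.0 and 41.4 CPM above neither cut, 84.4 and 50.6 CPM in the S state, 491 and 436 CPM in the S and G2M state and 320 and 181 CPM in the G2M state. H13 had 17.6 and 24.1, 57.3 and 35.9, 180 and 191, and 97.1 and 103 CPM in the same order. The choice of this cluster was made after the data had been seen.

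Cells above the S cut alone held far fewer UMIs of the 6 genes than cells above both cuts. In clusters 4, 9 and 12 the S state had 68.4 and 219 CPM of H15, 61.6 and 66.4 CPM of H13 and 164 and 411 CPM of H2AJ. These values rest on 24 and 28 cells, and the embryos differed by more than 3 times in H15. H2B1N had 0 UMIs in embryo 1, where 3 UMIs would make 20.5 CPM, and 13.3 CPM in embryo 2. Over all cells outside the erythroid-like clusters, where the S state held 409 and 364 cells, H15 had 66.4 and 56.0 CPM and the sum of the 6 genes was 278 and 280 CPM. Most of these S state cells, 267 and 199, were in cluster 2. The same cells above both cuts had 3828 and 4452 CPM of the 6 genes, so the low level of the S state was found in both embryos and in the wider set of cells. It depends on how the state is defined. With Seurat-style phases, which have no S and G2M state, the level in S lay much nearer that in G2M (values under the processing below). The S state here is the set of cells above the S cut alone and does not stand for S phase as a whole.

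When the cells outside the erythroid-like clusters were divided more finely by both lists, the summed level of the 6 genes was higher above the G2M cut than below it in each range of the S list. Cells with over 40 S list UMIs per 10000 but a G2M share between 60 and the cut had 234 CPM in embryo 1 (109 cells) and 328 CPM in embryo 2 (84 cells). With the same S share and a G2M share between the cut and 250 per 10000, the level was 3258 CPM (130 cells) and 3318 CPM (175 cells). It was 4620 CPM (68 cells) and 6829 CPM (100 cells) where the G2M share was 250 to 500, the highest value of the grid in each embryo. At a G2M share of 250 to 500 but an S share under 10, the level was 1109 and 1075 CPM. Cells low in both, with an S share under 10 and a G2M share under 60, had 69.1 and 83.2 CPM.

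Cells above the G2M cut but not the S cut were uneven in these genes. In the S and G2M state only 1.98% (embryo 1) and 1.54% (embryo 2) of the cells had no UMI of the 6 genes, and the median cell had 20 and 26 UMIs. In the G2M state 122 of 704 and 80 of 534 cells had none and the median was 7 and 9 UMIs, although the cells were slightly deeper (medians of 5198 and 5303 UMIs against 4903 and 4724). At the same time 44.0% and 49.8% of the G2M state cells had at least 10 UMIs of the 6. Their shares per cell spread over the whole range, with 21.2% and 18.5% of the cells above 0 and up to 5 per 10000 and 15.9% and 19.9% at 40 to 80 per 10000.

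**Figure D3:**
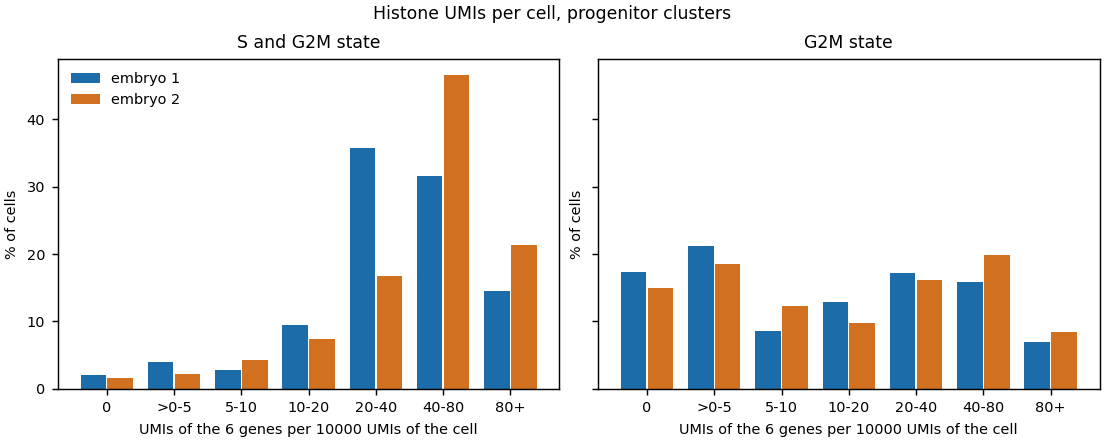
Share of cells (vertical axis, %) by the number of UMIs of the 6 genes per 10000 UMIs of the cell (horizontal axis), in the S and G2M state and in the G2M state of clusters 4, 9 and 12, for embryo 1 (blue) and embryo 2 (orange). The S and G2M state peaks at 20 to 40 per 10000 in embryo 1 (35.7% of cells) and at 40 to 80 in embryo 2 (46.6%), whereas the G2M state is spread from 0 upwards.

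Within the G2M state the levels also differed with the share of UMIs on 8 mitotic genes (AURKA, CCNB1, CCNB2, CENPE, DLGAP5, HMMR, PLK1 and UBE2C). These genes were chosen after the data had been seen and are partly held by the G2M list. Whether their share follows the progress of mitosis was not tested. Cells were ranked by the share of their UMIs on the 8 genes and divided into equal tertiles within each embryo. H15 had 648, 566 and 271 CPM from the lowest to the highest tertile in embryo 1 and 608, 543 and 269 CPM in embryo 2. H13 had 309, 228 and 123 CPM in embryo 1 and 230, 179 and 101 CPM in embryo 2. For the sum of the 6 genes the highest tertile had 1192 and 1263 CPM against 2421 and 2719 CPM in the lowest. Each of the 6 genes was lower in the highest tertile than in the lowest in both embryos. The median depth of a tertile ran from 4658 to 6266 UMIs per cell and was deepest in the lowest tertile of both embryos, and its part in the result was not tested.

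**Figure D4:**
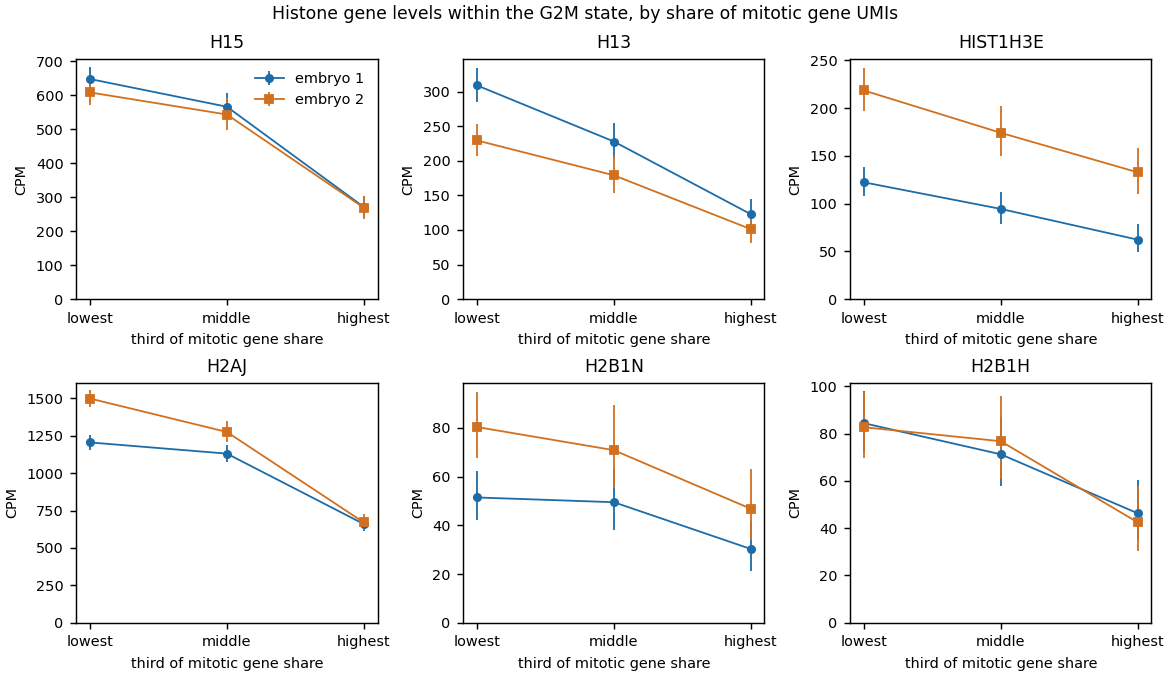
Level of each gene in CPM (vertical axis, from 0) in the lowest, middle and highest tertile of the share of mitotic gene UMIs, in G2M state cells of clusters 4, 9 and 12. Points are the embryos, lines join the tertiles of 1 embryo, and vertical lines are exact 95% Poisson intervals. Every line ends lower in the highest tertile, for H15 at 271 and 269 CPM.

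To compare shares of cells at 1 depth, each cell was thinned to 2000 UMIs and shallower cells were left out. After thinning, H15 was detected in 76.6% of the S and G2M state cells of embryo 1 (488 cells, 16 left out) and in 82.5% of those of embryo 2 (504 cells, 15 left out). In the G2M state the shares were 43.8% and 51.1%. Neuron-like cells had H15 in 1.75% and 1.83% of cells (1009 and 1765 shallower cells left out). Without thinning the shares were 91.1% and 93.6% in the S and G2M state, at median depths of 4903 and 4724 UMIs, and 3.69% and 2.79% in neuron-like cells, at 2852 and 2650 UMIs.

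H2AJ was the gene with the widest detection. It was found in 91.8% and 93.7% of thinned S and G2M state cells and in 8.69% and 11.2% of thinned neuron-like cells. Shares in erythroid-like cells are not set beside these, since haemoglobin fills most of the UMIs of such a cell after thinning. H2B1N was detected in the smallest share of thinned S and G2M state cells in embryo 1, 16.4%, against 29.8% in embryo 2. The 6 genes were rarely all seen in 1 cell at this depth, with every gene detected in 1.43% and 3.17% of the thinned S and G2M state cells and at least 1 in 94.5% and 97.0%.

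In single cells the levels of the 6 genes were positively correlated in every pair, to unlike degrees, and more so in the G2M state. Across the G2M state cells, the correlation between H15 and H2AJ was 0.79 in embryo 1 (704 cells) and 0.82 in embryo 2 (534 cells). That between H15 and H13 was 0.71 and 0.65. In the S and G2M state, the first pair had 0.66 and 0.66 and the second 0.56 and 0.56. These are descriptions across cells of 1 library that share its depth, and pairs with few UMIs have lower values. HIST1H3E and H2B1N had 0.13 and 0.20 in the S and G2M state and 0.37 and 0.43 in the G2M state.

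H15 and H13 made up similar proportions of the UMIs of the 6 genes in both dividing states of an embryo. H15 made up 25.3% of their UMIs in the S and G2M state of embryo 1 and 26.0% in its G2M state, and 21.1% and 22.5% in embryo 2. H13 made up 11.6% and 11.7% in embryo 1 and 7.48% and 8.18% in embryo 2. H2AJ made up 52.7% and 51.6% in embryo 1 and 57.8% and 54.8% in embryo 2, where the intervals of the 2 states did not overlap. In neuron-like cells the proportions were different, with 15.8% and 10.7% for H15 (971 and 1631 UMIs of the 6 genes), with intervals that did not overlap those of the S and G2M state. These are proportions of captured UMIs, not of transcripts, as the kit captures histone mRNAs only in part.

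Other histone-named models set the scale for these values. In clusters 4, 9 and 12, the linker histone HIST1H1D, model 227 beside H2AJ, had 95.7 and 94.3 CPM above neither cut and 1641 and 1742 CPM in the S and G2M state, 17.1 and 18.5 times as much. H2B1K, an H2B model of the same stretch, had 771 and 915 CPM in the S and G2M state, 19.8 and 22.8 times its level above neither cut. H2B2F, an H2B model of chromosome 8, had 1123 and 1401 CPM there, 24.8 and 17.7 times as much. The replication-independent variants H3F3A (a replacement form of H3), H2AFY (macroH2A) and H2AV (an H2A.Z gene) were 0.843 and 1.02, 1.70 and 1.43, and 2.81 and 2.55 times as high in the S and G2M state as above neither cut. H2AV, unlike the 6 genes, was lower in the S and G2M state than in the G2M state, at 0.862 and 0.858 times. Cells above neither cut are nearly all of cluster 12, so these ratios also compare clusters.

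A fit across all genes shows how much else moved between the states. UMIs were summed per embryo and state in clusters 4, 9 and 12 and tested with edgeR's quasi-likelihood test with the embryo as a block and Benjamini-Hochberg adjustment. Of 8235 models tested, 10.5% were called between the S state and cells above neither cut (adjusted p under 0.05), and 41.3% between the S and G2M state and cells above neither cut, a contrast added after the data had been seen. The samples behind these p-values are 2 animals, and the fit leaves 3 residual degrees of freedom, so a very small p-value is no measure of certainty about further animals. The 6 genes were chosen for this very difference, so nothing is read from their own calls. Because the cells above neither cut were nearly all of cluster 12, the same contrasts were also fitted within cluster 2, an alternative added after seeing the data. There 5056 models were tested and 586 were called in the S state (7.83% as higher and 3.76% as lower) and 746 in the S and G2M state (10% and 4.73%).

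Of the genes that make and process histone mRNA, 5 models were tested of a list of 7 names. They had been kept out of the S list, but the S state was set by other genes of S phase. Genes that act in S phase are likely to rise with such a list. Their changes and p-values are thus a description and no independent support. Of these 3 rose in the S state and 4 in the S and G2M state, and none fell, beside 5.82% and 21.1% of all tested models that rose and 4.69% and 20.2% that fell. SLBP, which binds the stem-loop of histone mRNAs, rose by a log2 fold change of 2.20 (SE 0.38, edgeR adjusted p = 4.13e-07) in the S state and by 1.94 (SE 0.22, adjusted p = 1.69e-17) in the S and G2M state. CASP8AP2, a component of the nuclear histone locus body, rose by 1.57 (SE 0.18, edgeR adjusted p = 4.21e-15) and 1.15 (SE 0.12, adjusted p = 1.63e-20). NPAT, which activates histone gene transcription, rose by 0.99 (SE 0.31, edgeR adjusted p = 0.0214) and 1.00 (SE 0.17, adjusted p = 3.17e-08). ERI1, a nuclease that trims histone mRNA ends, passed the test in the S and G2M state only (1.67, SE 0.59, edgeR adjusted p = 0.0144, against 0.94, SE 1.35, adjusted p = 0.769 in the S state), and the difference between the contrasts was not tested. Within cluster 2, 3 of 4 tested models rose and none fell in both contrasts, SLBP by 1.70 (SE 0.20, edgeR adjusted p = 9.96e-08) in the S state. ERI1 had 0 and 2 UMIs in the S state of clusters 4, 9 and 12, 32 and 27 in the S and G2M state and 4 and 2 above neither cut.

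Of the histone chaperones, which carry histones to DNA, 21 models were tested. The S list holds none of them, and the same limit applies to those that act in S phase. In the S state 8 rose and 1 fell, with a median log2 fold change of 1.14 beside −0.12 over all models, and in the S and G2M state 16 rose and 2 fell, with a median of 1.17 beside 0.01. Over all tested models 5.82% rose and 4.69% fell in the S state, and 21.1% and 20.2% in the S and G2M state. Without ASF1B, which had no UMI above neither cut, the medians were 1.04 and 1.13. CHAF1A and CHAF1B, subunits of the assembly factor that works behind the replication fork, rose in the S state by 3.98 (SE 0.72, edgeR adjusted p = 2.00e-06) and 4.21 (SE 0.93, adjusted p = 0.00019), on 6 and 8 and on 5 and 5 UMIs. HIRIP3, which binds histones, rose by 2.50 (SE 0.21, edgeR adjusted p = 1.04e-29). ASF1B, a chaperone of H3 and H4, had 0 UMIs above neither cut in both embryos, 1 and 1 in the S state (edgeR adjusted p = 0.0971) and 10 and 17 in the S and G2M state (adjusted p = 0.00216). The model that fell in the S state was TONSL (−0.56, SE 0.17, edgeR adjusted p = 0.0119), which reads new histones behind the fork. TONSL (−0.47, SE 0.093, edgeR adjusted p = 2.80e-06) and 1 of the models named RBBP7, a histone-binding subunit of several complexes (−1.05, SE 0.21, adjusted p = 3.58e-06), were those that fell in the S and G2M state. Within cluster 2, 8 of 18 tested chaperone models rose in each contrast, none fell in the S state and 1 fell in the S and G2M state (ATRX, a chaperone of H3.3, −0.30, SE 0.088, edgeR adjusted p = 0.0156). TONSL and the models named RBBP7 were not called there, TONSL with −0.12 (SE 0.093, edgeR adjusted p = 0.505) in the S state.

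Of 7 tested models of replication-independent variants, 3 rose in the S state (H2AFZ, H2AFY2 and H2AV) and 5 in the S and G2M state (these and H1FX and H2AFY), and none fell, again beside 5.82% and 21.1% of all tested models that rose and 4.69% and 20.2% that fell. The median log2 fold changes were 0.61 and 1.63. H2AFZ, which encodes H2A.Z, rose by 2.13 (SE 0.29, edgeR adjusted p = 1.44e-11) in the S state and by 2.57 (SE 0.16, adjusted p = 5.45e-52) in the S and G2M state. H2AFY2, a macroH2A gene, rose by 1.66 (SE 0.36, edgeR adjusted p = 0.000159) in the S state. H1FX, a linker histone variant, had a change of 0.71 (SE 0.30, edgeR adjusted p = 0.125) in the S state, and CENPA, the centromeric H3, had 0 UMIs in the S state and 1 and 0 above neither cut (adjusted p = 0.846). Over all histone-named models other than the 6, 25 of 47 were tested, of which 8 rose in the S state and 23 in the S and G2M state, and none fell, with the same shares over all models.

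H2AV turned direction with the cells compared. It rose by 0.61 in the S state of clusters 4, 9 and 12, and within cluster 2 it fell by 0.35 (SE 0.088, edgeR adjusted p = 0.00522) in the S state and was not called in the S and G2M state (−0.10, SE 0.11, edgeR adjusted p = 0.636). H2AFZ rose in cluster 2 as well, by 0.60 (SE 0.14, edgeR adjusted p = 0.00353) in the S state and by 1.07 (SE 0.19, adjusted p = 5.00e-05) in the S and G2M state. Of the 6 variant models tested there, 2 rose and 1 fell in the S state and 3 rose in the S and G2M state, with median log2 fold changes of 0.03 and 0.46.

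The progenitors of the ventral forebrain express DLX transcription factors, which specify inhibitory neurons. Cells with DLX were compared with other cells of the same state, taken from all cells outside the erythroid-like clusters that had at least 1000 UMIs. A cell counted as DLX-positive with at least 2 UMIs of DLX1, DLX2, DLX5 and DLX6 together and as DLX-negative with none. This comparison uses no histone gene in its groups, so the 6 genes were tested in it. In the S state, the contrast planned for them, 29 and 44 DLX-positive cells stood against 362 and 291 DLX-negative cells. Few of them were in the dividing cell-like clusters: of the DLX-positive cells 16 and 27 were in cluster 2 and 10 and 14 in neuron-like clusters, and of the DLX-negative cells 237 and 151 were in cluster 2 and 17 and 35 in neuron-like clusters. Of 6482 models 5.38% were called (1.96% higher, 3.42% lower), and none of the 6 genes was, with fitted log2 changes from −0.64 (H2B1N, SE 1.00) to 0.46 (H2B1H, SE 0.84) and edgeR adjusted p-values from 0.687 to 0.986. H15 rested on 13 and 9 UMIs in the DLX-positive cells (101 and 51.8 CPM) and on 118 and 79 in the DLX-negative cells (66.5 and 59.1 CPM), and the intervals of the groups overlapped in both embryos.

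Above both cuts H13 and H15 were lower in DLX-positive cells. In this S and G2M state, added as a contrast after the data had been seen, H13 had 477 and 370 CPM in the DLX-negative cells of embryos 1 and 2 (467 and 398 cells) and 238 and 246 CPM in the DLX-positive cells (75 and 134 cells). The intervals of the 2 groups did not overlap in either embryo. H13 fell by 0.83 on the log2 scale (SE 0.12, edgeR adjusted p = 1.65e-05), and 14.7% of all tested models were called, 7.28% as higher and 7.45% as lower. H15 had 1028 and 980 CPM in DLX-negative cells and 658 and 868 CPM in DLX-positive cells, and fell by 0.44 (SE 0.094, edgeR adjusted p = 0.00154). In embryo 2 the intervals of both groups overlapped. The plain difference of log2 CPM, taken in each embryo alone without a fit, was −0.34 there against −0.76 in embryo 1. The call of H15 was lost with the cut at the 95th percentile (adjusted p = 0.0695) and without the embryo block (adjusted p = 0.0698). Of the DLX-positive cells 73 and 128, and of the DLX-negative cells 385 and 335, were in the dividing cell-like clusters. In these clusters alone, an alternative added after seeing the data, H13 had 515 and 396 CPM in DLX-negative and 242 and 253 CPM in DLX-positive cells and fell by 0.90 (SE 0.11, edgeR adjusted p = 4.97e-08). H15 had 1097 and 1054 CPM against 671 and 899 CPM and fell by 0.50 (SE 0.096, edgeR adjusted p = 0.00022).

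HIST1H3E changed the opposite way, with 189 and 299 CPM in DLX-negative and 226 and 478 CPM in DLX-positive cells of the S and G2M state. It rose by 0.46 (SE 0.11, edgeR adjusted p = 0.00533), but in embryo 1 the intervals of the 2 groups overlapped. The plain difference of log2 CPM there alone, without a fit, was 0.14 against 0.50 in embryo 2. The call of HIST1H3E was lost with DESeq2 (adjusted p = 0.0683), without a filter on genes (edgeR adjusted p = 0.0637) and without the embryo block (adjusted p = 0.336). In the dividing cell-like clusters alone it rose by 0.40 (SE 0.11, edgeR adjusted p = 0.0069). H2AJ, H2B1N and H2B1H were not called, with changes of 0.03 (SE 0.11), 0.31 (SE 0.17) and 0.10 (SE 0.15). The small change of H2AJ joins opposite differences in the 2 embryos, each with intervals that did not overlap. H2AJ had 2024 CPM in DLX-negative and 1773 CPM in DLX-positive cells of embryo 1, against 2416 and 3005 CPM in embryo 2. The sum of the 6 genes likewise went from 3912 to 3114 CPM in embryo 1 and from 4319 to 4908 CPM in embryo 2. Among the UMIs of the 6 genes, H13 took 12.2% and 8.57% in DLX-negative and 7.63% and 5.01% in DLX-positive cells. There were 2.52 and 1.24 UMIs of H13 per UMI of HIST1H3E in DLX-negative cells and 1.05 and 0.515 in DLX-positive cells, a ratio that depends on no scaling of the libraries. The pair was formed after the opposite changes of these genes had been seen, so the ratio adds no support of its own. It also differed between the embryos within each DLX group.

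In the G2M state, likewise added later, H15 had 491 and 458 CPM in DLX-negative cells (817 and 582 cells) and 300 and 289 CPM in DLX-positive cells (59 and 92 cells). It fell by 0.76 on the log2 scale (SE 0.12, edgeR adjusted p = 4.17e-05), where 12.8% of all tested models were called, 6.2% as higher and 6.57% as lower. H13 had 218 and 175 CPM against 142 and 104 CPM and fell by 0.75 (SE 0.16, edgeR adjusted p = 0.00222), a call lost without the embryo block (adjusted p = 0.0878). Of the DLX-positive cells 51 and 66 were in the dividing cell-like clusters and 4 and 19 in neuron-like clusters, and of the DLX-negative cells 612 and 432 and 23 and 26. In the dividing cell-like clusters alone H15 fell by 0.78 (edgeR adjusted p = 7.32e-06) and H13 by 0.84 (adjusted p = 0.000129). The other 4 genes were not called, H2AJ with −0.20 (SE 0.12), HIST1H3E with −0.02 (SE 0.16), H2B1N with 0.01 (SE 0.25) and H2B1H with 0.32 (SE 0.20). Whether the change of a gene differed between the states was not tested.

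**Figure D5:**
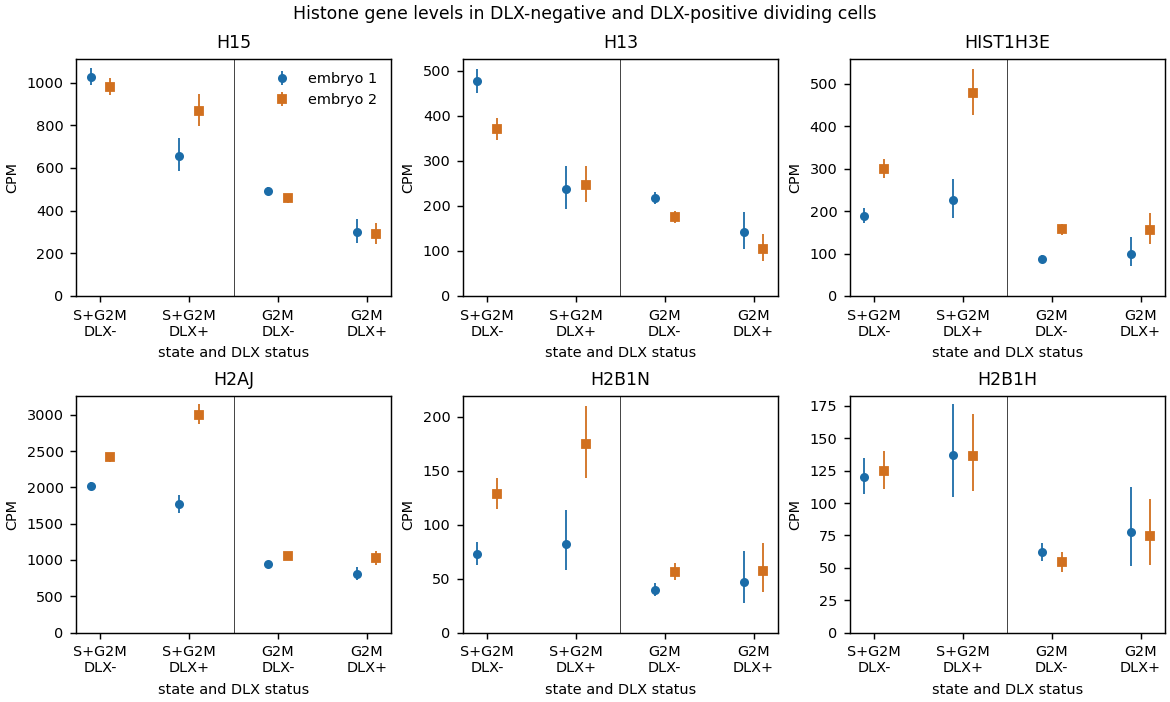
Level of each gene in CPM (vertical axis, from 0) in DLX-negative (DLX-) and DLX-positive (DLX+) cells of the S and G2M state (left of the line) and the G2M state (right), with embryo 1 as circles, embryo 2 as squares and exact 95% Poisson intervals. H13 lies lower in DLX-positive cells in both states and embryos, in the S and G2M state at 238 and 246 CPM against 477 and 370 CPM.

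The DLX groups were not matched in their place within a state. In the S and G2M state the median G2M list share was 349 and 313 per 10000 in DLX-positive cells against 229 and 221 in DLX-negative cells, and the median S list share was 37.6 and 46.6 against 32.7 and 35.9. In the G2M state the G2M list share was 463 and 472 against 383 and 346. The part of these differences in the results was not tested. The linker histone HIST1H1D was not called in either state, with −0.17 (SE 0.088, edgeR adjusted p = 0.231) in the S and G2M state and −0.29 (SE 0.10, adjusted p = 0.0511) in the G2M state. H3F3A rose by 0.51 (SE 0.084, edgeR adjusted p = 7.29e-05) and 0.64 (SE 0.084, adjusted p = 3.40e-06).

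To find genes whose levels over the 17 clusters were most like those of the 6, for each gene the 3 non-histone models with the highest mean Pearson correlation of log2(CPM + 1) were taken from 6184 models with at least 500 UMIs. SGO1, which protects sister chromatid cohesion, was among them for H2AJ (0.96), HIST1H3E (0.97), H2B1N (0.92) and H2B1H (0.92). SPC25, a kinetochore subunit, was among them for H15 (0.96), HIST1H3E (0.93) and H2AJ (0.96), and AURKB, a mitotic kinase, for H15 (0.97), H13 (0.95) and HIST1H3E (0.93). The others were FBXO5 for H15, KIF18A and TOP2A for H13, KIFC1 for H2AJ and H2B1N, NEIL3 for H2B1N, and MXD3 and CDCA8 for H2B1H. The 17 clusters share 2 libraries. Over the 15 clusters other than 4 and 9 the correlations of these 18 pairs ran from 0.68 to 0.92. With Spearman's rank correlation 6 of the 18 places were filled by the same genes.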

How the data were processed

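Per the labels and the study's methods, the authors made a single Chromium 3′ library (version 3 chemistry) from each brain, ran Cell Ranger 3.1.0 with default parameters against the TS_2.0 assembly and its annotation, and deposited raw UMI counts per gene model and barcode, without normalization (9241 and 9685 barcodes, 41868023 and 38077767 UMIs). The deposited tables of gene models and barcodes hold names and identifiers, of another kind than counts. The 6 genes, the gene lists and the tests were chosen with earlier results of these data known. Genes were named by rule: the 6, the 6 other histone-named models with the most UMIs, up to 4 genes per list with the largest change in the S state, and the 3 genes most alike per member. TONSL, RBBP7 and ATRX were named after their values were seen.

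Cells with at least 200 genes were kept (38192755 and 35785697 UMIs). Counts were scaled to 10000, log-transformed and clustered (scanpy 1.11.5, 2000 variable genes without histone-named genes, 20 components, 20 neighbours, leidenalg 0.10.2, resolution 0.5). A cluster took the name of the type with the most markers if 3 or more were detected in 10% of its cells at 2 times the level elsewhere, unless markers of a different type prevailed among its 10 leading genes. Of the G2M list, 26 of 91 models bear the name HMGB2. States were set for cells with at least 1000 UMIs. Sums of at least 20 cells per embryo were tested with edgeR 4.0.16 (R 4.3.3; TMM, filterByExpr, quasi-likelihood test, embryo as block because the groups compared come from the same animal). The fits held 8 sums for the states and 12 for the DLX groups, with 3 and 5 residual degrees of freedom and common biological coefficients of variation of 0.0664 and 0.0732. On simulated data with 200 genes changed 4-fold, 40% were recovered in the S state contrast (7739 genes), 83% in the S and G2M contrast (7718), and 63%, 78% and 82.5% in the DLX contrasts within the S (6269), S and G2M (6266) and G2M (6191) states. The alternatives were RLE size factors, DESeq2 1.42.0, no filter on genes, no block, the 95th percentile, Seurat-style phases, other sets of cells, highest Scrublet scores left out at 0.8% per 1000 cells, haemoglobin left out, resolution 1, means over cells, at least 1 DLX UMI, and each embryo left out. Clusters 2 and 5 counted with the progenitors, the G2M list without NCAPD2, the states within cluster 2, the DLX groups in dividing cell-like clusters alone or without neuron-like clusters, and correlations without clusters 4 and 9 were added after seeing the data.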

Additional observations from a re-analysis of the deposited data

How the results depend on the processing

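In each of 11 alternatives, each of the 6 genes was highest in the S and G2M state (66 of 66 values), and the order S and G2M, G2M, S, neither held in 62. The 4 exceptions were H13, H2B1N and H2B1H with the 95th percentile and H2B1N without embryo 2. Seurat-style phases have no S and G2M state. The summed level of the 6 genes (138, 552, 4432 and 2129 CPM above neither cut and in the S, S and G2M and G2M states) moved by more than its SD as follows. With the 95th percentile it was 82.0, 142, 3887 and 1533 CPM. With Seurat-style phases it was 80.4 CPM above neither score, 2220.5 CPM in S and 2986 CPM in G2M. Over all cells outside erythroid-like clusters it was 96.1 CPM above neither cut and 1874 CPM in G2M. As means over cells it was 5174 and 2620 CPM in the S and G2M and G2M states, and in G2M it was 2425 CPM without the cells of highest Scrublet score and 1943 CPM with clusters 2 and 5 included. In neuron-like cells it went from 92.0 to 81.3 CPM with at least 1000 genes per cell. The causes were not tested. Leaving out 1 embryo gave 121 to 156, 315 to 790, 4074 to 4791 and 2016 to 2243 CPM in the 4 states, 2782 to 3357 CPM in dividing cell-like and 85.1 to 98.8 CPM in neuron-like clusters.

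The embryo block pairs groups of the same animal. With no replicate block, 569 models in place of 865 were called between the S state and cells above neither cut, and 182, 493 and 430 in place of 349, 955 and 828 in the DLX contrasts within the S, S and G2M and G2M states. DESeq2 called 2246 in place of 3402 between the S and G2M state and cells above neither cut and 633 in place of 955 in the DLX contrast of the S and G2M state, and clusters 2 and 5 raised the S state count to 1903. Within cluster 2, where 5056 models were tested, 746 were called between the S and G2M state and cells above neither cut. Without neuron-like clusters 94 were called in the DLX contrast of the S state, where the DLX-positive cells of embryo 1 were too few (under 20) and were left out. That contrast was not run in dividing cell-like clusters alone (1 and 3 DLX-positive cells). The S state test with the 95th percentile was not run, since fewer than 20 cells per embryo remained. Of the DLX values, those that turned direction in a test on both embryos were not called in any setting in which they turned. In the S state, with at least 1 DLX UMI, H15 had a log2 change of −0.33, HIST1H3E −0.092, H2AJ −0.19 and H2B1H −0.27. With the highest Scrublet scores left out, H15 had −0.98, H2AJ −0.32 and H2B1H −0.76. Without a filter on genes, H15 had −0.026, HIST1H3E −0.088 and H2AJ −0.11, with the 95th percentile H2B1N had 1.03, and without neuron-like clusters H15 had −0.29 and H2AJ −0.83. In the S and G2M state, without a filter, H2AJ had −0.090 and H2B1H −0.019, and in dividing cell-like clusters alone H2AJ had −0.040. In the G2M state HIST1H3E had 0.037 with the highest Scrublet scores left out and 0.021 with no block and 0.11 without neuron-like clusters, and H2B1N −0.14 without a filter. Values also turned with 1 embryo left out, where no test was run. Without embryo 1, H15 had −0.37, HIST1H3E −0.097 and H2AJ −0.62 in the S state. H2B1H then had −0.042 in the S and G2M state and H2B1N −0.20 in the G2M state. Without embryo 2, H13 had −0.039, HIST1H3E −0.0084, H2B1N 0.42 and H2B1H −0.16 in the S state. H2AJ then had −0.30 in the S and G2M state and HIST1H3E 0.063 in the G2M state. H2AJ in the G2M state was called without a filter (−0.35, edgeR adjusted p = 0.00419). H13 in the S and G2M state and H15 in the G2M state were called in 9 of 9 alternatives. With Spearman's correlation 6 of 18 most similar genes were shared. The S state of 24 and 28 cells limits what can be seen there.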

Other observations

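Cluster 2, which was left unnamed, held 1108 cells of embryo 1 and 793 of embryo 2 with a median of 3453 and 3910 UMIs. At least 1 UMI of the 6 genes was found in 26.7% and 27.6% of its cells after thinning to 2000 UMIs, against 79.1% and 85.2% of the dividing cell-like cells and 13.2% and 16.5% of the neuron-like cells. In cluster 5, also unnamed and led by DBX1, CDKN1C and DLL3 among others, the thinned shares were 13.5% and 13.6%. H15 was found in 10.2% and 9.28% of the thinned cells of cluster 2 and in 1.71% and 2.39% of those of cluster 5.

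In the DLX contrast of the S and G2M state, 7 of the 21 tested histone-named models other than the 6 rose and 1 fell, beside 7.28% and 7.45% of all tested models. The model that fell was HIST2H4A, a core histone H4 model, with a log2 change of −0.73 (SE 0.14, edgeR adjusted p = 0.000644). The largest rises were in models named HIST3H2BB, by 1.97 (SE 0.40, edgeR adjusted p = 0.000854) and 1.10 (SE 0.33, adjusted p = 0.0215). These 2 models had only 309 and 552 UMIs over all barcodes. Models named H31 rose by 0.71 (edgeR adjusted p = 0.0105) and 0.70 (adjusted p = 0.0335), and a further H31 model was not called (−0.31, adjusted p = 0.152). A model named H4 rose by 0.41 (SE 0.12, edgeR adjusted p = 0.0210). H1FX, a linker histone variant, rose by 0.41 (SE 0.10, edgeR adjusted p = 0.00606). These models were named after their values were seen, and DLX groups differed in their G2M list share as given above. In the DLX contrast of the G2M state 2 of the 21 models rose and 1 fell, beside 6.2% and 6.57% of all tested models. HIST2H4A fell there as well (−0.80, edgeR adjusted p = 0.00878). The HIST3H2BB models were not called there (0.39, edgeR adjusted p = 0.746, and −0.26, adjusted p = 0.773), nor were those named H31, H4 and H1FX.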
